A study of Homo sapiens with 22 samples.

Results

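LS180 cells after 4 h of actinomycin D were compared with LS180 cells at 0 h, to see which transcripts had been lost and which remained once transcription was blocked. The libraries were taken by their titles, 3 at 4 h and 3 at 0 h, which are 6 of the 22 in the series. All genes were included: 17256 of the 57820 genes in the tables passed a filter on low counts and were tested. LS180 is a human colorectal adenocarcinoma cell line that produces mucin. The 4 h cells had received actinomycin D at 5 µg/ml, and the labels give the 0 h cells the same agent with no time of exposure, so no vehicle was compared. The series concerns the double-stranded RNA binding protein Staufen1 and its effect on FOXA1 mRNA. Its other actinomycin D groups, LS180 at 2 h and the colorectal carcinoma line HCT116 at 4, 2 and 0 h, had 3 libraries each and are used below only where they are named. RNA was column-purified and libraries were made from total RNA with a kit that keeps the strand. Each line is 1 established culture line, and no label ties a library to a dish of its own. The p-values therefore rest on the spread of these samples alone, part or all of which could be technical.

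Actinomycin D binds DNA and stops RNA polymerases from moving along it. With synthesis blocked, each transcript falls at the pace of its own decay. Transcripts of cytokines, feedback inhibitors and many transcription factors are known to decay fast, often through AU-rich elements in the 3′ untranslated region (UTR) that recruit deadenylating enzymes. Transcripts of ribosomal proteins, metabolic enzymes and secreted proteins are known to be long-lived.

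Levels are given as CPM, counts per 1000000 of a library's scaled depth, and changes as log2 of 4 h over 0 h. The scaling (TMM) sets the bulk of genes to no change, so all values are relative to the transcripts that remain. A higher value at 4 h means a larger share of the remaining RNA, not that more RNA was made, and the files hold no measure of RNA per cell. A gene is called where edgeR's quasi-likelihood test gave an adjusted p below 0.05 over all 17256 genes.

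The libraries held 52.3, 57.4 and 56.6 M counts (1 M is 1000000) at 4 h and 53.6, 50.9 and 54.6 M at 0 h. At 4 h, library 1 stood apart from libraries 2 and 3. Short noncoding RNAs took 17.3% of its counts, against 22.5% and 25.7% in the other 4 h libraries and 17.8 to 21.5% at 0 h. A chi-square per degree of freedom over gene counts was 62.8 and 119 between 4 h library 1 and libraries 2 and 3, against 17.1 between libraries 2 and 3 and 9.29 to 21.1 among the 0 h libraries, so none was a copy of another. Where leaving out libraries ended a call of a named gene or moved its change by over 1.5 times, the value without them is given beside it. Of 14 colon epithelial markers, 13 averaged at least 1 CPM, and their summed level was 5771 to 6954 CPM at 4 h and 5118 to 5333 CPM at 0 h. Among 10 fibroblast markers only ACTA2 reached 1 CPM, among 13 immune markers only LYZ did, and none of 7 endothelial markers did. PTPRC, CD3D, COL1A1, COL1A2, DCN, VWF and CDH5 averaged below 0.1 CPM.

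At 4 h, 5365 genes were lower (31.1% of those tested) and 4591 were higher (26.6%), while 7300 were not called. The sides differed in size. Falls of at least 2-fold were called for 2677 genes (15.5%), and rises of at least 2-fold for 183 (1.06%), of which 152 averaged below 1 CPM. Among the 8728 genes that averaged at least 10 CPM, the log2 change had a median of 0.10, with a 5th percentile of -1.95 and a 95th of 0.55. In that range 422 genes were at least 4-fold lower and 172 at least 8-fold lower, while 12 were at least 2-fold higher. Those 12 were 7 mitochondrial transcripts and 5 short noncoding RNAs. The number of higher genes rested on the scaling: it was 6044 with RLE size factors, 1894 with total library size and 133 with scaling to ribosomal protein genes, against 4613, 6458 and 10661 lower genes.

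**Figure D1:**
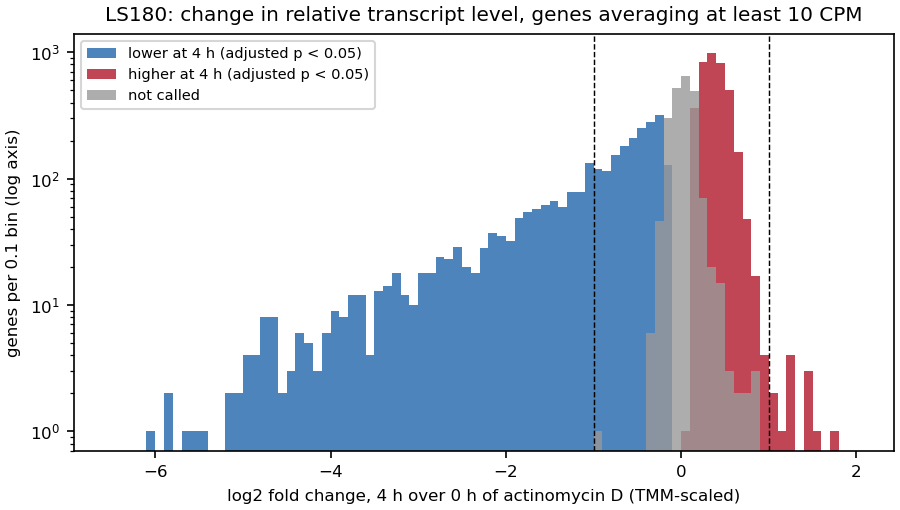
Number of genes (log axis) by log2 change of 4 h over 0 h of actinomycin D in LS180, for the 8728 genes averaging at least 10 CPM, in bins of 0.1; blue and red are genes called lower and higher, grey genes not called, and dashed lines mark 2-fold. The lower side reaches below -5, while the higher side has 12 genes past 2-fold.

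With replication-dependent histones, short noncoding RNAs and pseudogenes left out of the ranking, the largest fall was in MYC, the oncogenic transcription factor at the centre of Wnt and growth signaling in the colon. MYC had 4.67, 4.36 and 3.96 CPM at 4 h, against 270, 247 and 229 CPM at 0 h. It fell 57.3-fold (log2 -5.84, SE 0.126; edgeR adjusted p = 2.03e-16), which left 1.74% of its 0 h level. TNFSF9, the ligand of the T cell receptor 4-1BB, had 0.915, 0.605 and 0.522 CPM at 4 h against 28.3, 30.1 and 30.02 CPM at 0 h and fell 42.7-fold. EPHB3, an ephrin receptor of intestinal crypts, had 12.7, 7.90 and 7.29 CPM at 4 h against 378, 333 and 287 CPM at 0 h and fell 35.7-fold. In all 3 genes the 4 h and 0 h libraries were far apart, and 4 h library 1 held the highest remainder.

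The next largest falls were in DUSP6 (log2 -5.15), which dephosphorylates ERK, DDIT4 (-5.09), an inhibitor of mTORC1, SPRY2 (-4.91), an inhibitor of receptor tyrosine kinase signaling, ID3 (-4.79), an inhibitor of basic helix-loop-helix factors, and SMAD7 (-4.76), an inhibitor of TGF-beta receptors. PIM3 (-4.72), a serine/threonine kinase, AXIN2 (-4.65), a Wnt feedback inhibitor, NFKBIA (-4.62), the inhibitor of NF-kB, and IER3 (-4.55), an early response gene, followed. DLL4 (-4.55), a Notch ligand, and ZNF627 (-4.44), a zinc finger gene, were also among the 15 largest by this ranking, which took only genes whose 4 h and 0 h libraries did not overlap.

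The 3′ UTRs of 14 of the 15 genes were read from GENCODE 29 transcripts (GRCh38), with MYC left out. The pentamer ATTTA, the core of an AU-rich element, was found at least 3 times in 7 of them and not at all in 3, EPHB3, DDIT4 and ZNF627. The nonamer TTATTTATT was found in 0 of the 14. Both motifs were searched on the transcript strand, with overlapping matches counted. Windows of 30 bases with 2 pentamers are shown for PIM3 and IER3, because they hold such a dense stretch in fast-falling transcripts, with each ATTTA in capitals. They lie at bases 490 to 519 of the 3′ UTR of PIM3 (ENST00000360612.4, chromosome 22) and 259 to 288 of that of IER3 (ENST00000259874.5, chromosome 6).
PIM3: cggggctATTTAttgtttaATTTAtttgtt
IER3: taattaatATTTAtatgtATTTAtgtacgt
IER3 held 6 pentamers in 737 bases and PIM3 4 in 953. The pentamer is common: it was present in 66.9% of the 3′ UTRs of 13469 tested protein-coding genes. The share of all these with at least 3 pentamers is not given here, so the 7 of 14 has no background to be read against.

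Of the genes the series is about, FOXA1 had 4.53, 3.23 and 3.003 CPM at 4 h against 40.4, 36.8 and 38.5 CPM at 0 h, with 4 h library 1 again the highest. Its fall of 10.7-fold put it among the 172 genes averaging at least 10 CPM that were at least 8-fold lower. FOXA2 had 0.419, 0.383 and 0.457 CPM at 4 h against 10.02, 9.34 and 8.88 CPM at 0 h, and FOXA3 had 0.419, 0.403 and 0.305 CPM at 4 h against 7.16, 6.77 and 6.08 CPM at 0 h. STAU1 went the other way on this scale, with 88.8, 83.7 and 78.3 CPM at 4 h against 75.2, 72.6 and 71.0 CPM at 0 h (log2 0.20, SE 0.0527; edgeR adjusted p = 0.00342). Its paralog STAU2 had 45.8, 51.9 and 51.3 CPM at 4 h against 40.6, 39.8 and 44.6 CPM at 0 h (log2 0.25, SE 0.0609; edgeR adjusted p = 0.00151). With scaling to ribosomal protein genes both changed sign, to -0.34 for STAU1 and -0.30 for STAU2, while FOXA1, FOXA2 and FOXA3 kept theirs. With total library size both were near 0 and no longer called (log2 0.0037 for STAU1 and 0.047 for STAU2).

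**Figure D2:**
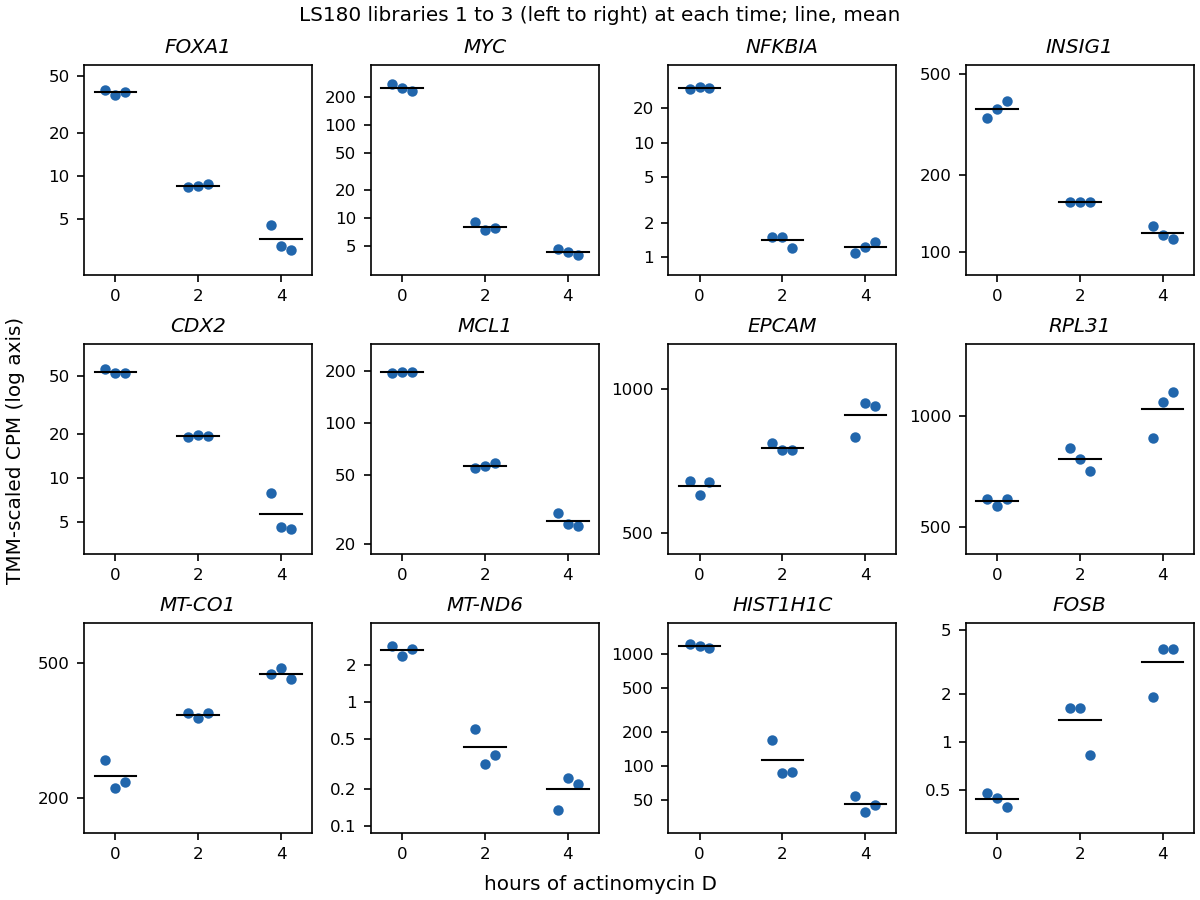
TMM-scaled CPM (log axis) of 12 genes in each LS180 library at 0, 2 and 4 h of actinomycin D (points, libraries 1 to 3 from left to right; line, mean of 3). MYC, NFKBIA, INSIG1, FOXA1, CDX2, MCL1, MT-ND6 and HIST1H1C were lower at 4 h than at 0 h in all libraries, and EPCAM, RPL31, MT-CO1 and FOSB were higher.

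Genes of acute signaling fell almost as a block. Of 27 AP-1 and immediate early genes tested, 26 fell and 1 rose, with a median log2 change of -2.55 against 0 over all genes tested. IER3 had 2.93, 2.16 and 2.46 CPM at 4 h against 56.2, 61.6 and 60.05 CPM at 0 h. TRIB1, a pseudokinase that directs proteins to degradation, fell 13.2-fold, IER5 fell 9.34-fold and IER2 fell 5.85-fold. The gene that rose was FOSB, an AP-1 subunit, with 1.92, 3.81 and 3.81 CPM at 4 h against 0.482, 0.446 and 0.395 CPM at 0 h (log2 2.84, SE 0.296; edgeR adjusted p = 1.38e-07). Its level at 0, 2 and 4 h averaged 0.441, 1.37 and 3.18 CPM. FOSB rose under every alternative fit, by 2.25 on the log2 scale without 4 h libraries 2 and 3, including scaling to ribosomal protein genes, and no other member of the list was called higher.

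Of 14 KLF genes, zinc finger factors of epithelial differentiation and growth arrest, 13 fell and none rose (median -2.54). KLF10 fell 20.9-fold, KLF4 15.5-fold, KLF6 12.2-fold and KLF5 11.8-fold. KLF5, the most abundant, had 16.9, 12.1 and 12.4 CPM at 4 h against 166, 158 and 164 CPM at 0 h. Of 20 feedback inhibitors of ERK signaling, 17 fell and none rose (median -2.61). PHLDA1, an early response gene, had 22.2, 14.1 and 13.5 CPM at 4 h against 335, 318 and 318 CPM at 0 h, and DUSP4, which dephosphorylates ERK in the nucleus, fell 10.4-fold.

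Of 24 NF-kB regulators and target ligands, 18 fell and 2 rose (median -1.36). NFKBIA had 1.09, 1.23 and 1.35 CPM at 4 h against 29.3, 30.8 and 29.8 CPM at 0 h. LIF, an IL-6 family cytokine, fell 6.99-fold, NFKBIE, a second inhibitor of NF-kB, 6.66-fold, and BIRC3, an inhibitor of apoptosis, 2.76-fold. In the MYC, MAX and MXD network 9 of 13 genes fell and 2 rose (median -0.46). MYCN, a paralog of MYC, had 0.0762, 0.121 and 0.131 CPM at 4 h against 5.36, 6.21 and 5.67 CPM at 0 h. MXD1, an antagonist of MYC, fell 6.53-fold and MYCL 4.65-fold. Without 4 h libraries 2 and 3 the log2 changes of LIF, NFKBIE and MYCL were -2.14, -2.01 and -1.56, against -2.80, -2.74 and -2.22 with all.

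Wnt feedback and stem cell genes followed in part: 13 of 24 fell and 2 rose (median -0.33). AXIN2 had 10.4, 6.71 and 6.64 CPM at 4 h against 195, 204 and 197 CPM at 0 h. ZNRF3, a ubiquitin ligase that removes Wnt receptors, fell 16.5-fold, and SOX9, a crypt transcription factor, fell 7.51-fold. The log2 change of ZNRF3 was -4.04, and -3.45 without 4 h libraries 2 and 3. Of 20 BMP, SMAD and ID genes 17 fell and none rose (median -1.41). SMAD7 had 0.972, 0.786 and 0.762 CPM at 4 h against 22.1, 24.2 and 22.4 CPM at 0 h. BAMBI, a decoy receptor, fell 19.9-fold, the ligand BMP4 16.1-fold, and TGIF1, a corepressor of SMAD proteins, 9.70-fold. Receptor tyrosine kinases and EGF ligands showed no common direction, with 6 of 18 lower and 6 higher (median 0.07). Both shares were near those of all genes, 31.1% lower and 26.6% higher. The 3 EGF ligands named by the rule fell: HBEGF 5.59-fold, EREG 2.36-fold and AREG 2.08-fold.

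Among 29 p53 targets 19 fell and 5 rose (median -0.70). BTG2, an antiproliferative factor that recruits deadenylases, fell 20.8-fold, SESN2, a stress-induced inhibitor of mTORC1, 15.7-fold, AEN, a nuclease of apoptosis, 9.79-fold, and PPM1D, a phosphatase that dampens p53, 9.07-fold. In the BCL2 family 10 of 17 genes fell and 3 rose (median -0.75). MCL1, a pro-survival member, had 30.05, 26.0 and 25.2 CPM at 4 h against 195, 197 and 199 CPM at 0 h. BCL2L1, which encodes the pro-survival BCL-XL, fell less, 2.34-fold, with 29.9, 27.9 and 28.2 CPM at 4 h against 64.4, 67.6 and 69.5 CPM at 0 h. The pro-death genes BBC3 and BCL2L11 fell 9.56-fold and 7.25-fold. The log2 change of BBC3 was -3.26, and -2.55 without 4 h libraries 2 and 3.

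Of 15 D and E cyclins and CDK inhibitors 5 fell and 3 rose (median -0.25), and the share that fell, 33.3%, was near the 31.1% of all genes. CDKN1B, which encodes the CDK inhibitor p27, had 6.78, 5.0002 and 6.22 CPM at 4 h against 68.6, 64.8 and 66.8 CPM at 0 h. CDKN1A, which encodes p21, had 24.9, 20.02 and 20.4 CPM at 4 h against 157, 161 and 161 CPM at 0 h. CCNE2 and CCNE1, the E cyclins, fell 2.30-fold and 2.12-fold. CCND1, cyclin D1 and the most abundant member, was not called, with 417, 403 and 385 CPM at 4 h against 402, 393 and 396 CPM at 0 h (log2 0.02, SE 0.0504; edgeR adjusted p = 0.807). Its groups overlapped. In the circadian clock 12 of 19 genes fell and 2 rose (median -1.16). BHLHE40, NFIL3, TEF and CRY2, all repressors or output factors of the clock, fell 13.8-fold, 11.6-fold, 9.12-fold and 4.16-fold.

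Of 26 epithelial and secretory transcription factors 23 fell and none rose (median -1.66). CDX2, the intestinal homeobox factor, had 7.98, 4.62 and 4.50 CPM at 4 h against 56.0, 52.1 and 52.4 CPM at 0 h (log2 -3.22, SE 0.143; edgeR adjusted p = 6.99e-13), and its log2 change was -2.61 without 4 h libraries 2 and 3. HES1, the Notch target that represses secretory fate, had 1.91, 2.10 and 2.00 CPM at 4 h against 30.1, 27.5 and 30.3 CPM at 0 h. Of 25 HOX genes tested 14 fell and none rose (median -1.33), with HOXA11 10.8-fold lower, HOXA13 6.55-fold lower and HOXA10 1.88-fold lower. Members such as HOXC5, HOXC9, HOXC10 and HOXD8 averaged below 0.1 CPM. With 0.5 CPM added to the mean of each time the median was -0.30. HOXA9, the most abundant member, was not called, with 35.9, 35.0 and 35.0 CPM at 4 h against 39.3, 37.6 and 39.9 CPM at 0 h.

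Of 19 trefoil, AGR2 and goblet cell genes 10 were higher and none lower (median 0.47). AGR2, a disulfide isomerase for mucins, had 1247, 1428 and 1469 CPM at 4 h against 995, 884 and 960 CPM at 0 h. The secreted peptides TFF3, SPINK4 and REG4 were 1.49-fold, 1.60-fold and 1.49-fold higher. Of 9 mucins 3 were higher, a share of 33.3% near the 26.6% of all genes, and none lower (median 0.29). MUC6 had 58.3, 49.8 and 45.8 CPM at 4 h against 33.1, 33.4 and 26.5 CPM at 0 h, and MUC2 was 1.73-fold higher. MUC5AC had 5.77, 5.10 and 3.11 CPM at 4 h against 3.29, 3.09 and 2.14 CPM at 0 h, groups that overlapped, and its call (edgeR adjusted p = 0.0364) was lost without 4 h library 1 or 2, without 0 h library 2 or 3, with the effective length as offset, with total library size and with ribosomal protein scaling (0.0532 to 0.606). None of the goblet genes or mucins was higher with scaling to ribosomal protein genes, where 0 goblet genes and 1 mucin were lower.

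Brush border and membrane linker genes had 8 of 20 higher and 1 lower, none higher with ribosomal protein scaling. VIL1, which encodes the actin bundler villin, had 238, 252 and 254 CPM at 4 h against 189, 181 and 175 CPM at 0 h. The exception was ANKS4B, a scaffold of the microvillus tip complex, with 5.66, 4.60 and 5.01 CPM at 4 h against 21.0, 18.8 and 19.7 CPM at 0 h. Of 25 identifiers of cadherin, catenin and junction genes 12 were higher and 5 lower, with F11R under a pair of identifiers counted once on each side, against 0 and 19 with ribosomal protein scaling. EPCAM, an epithelial adhesion molecule, had 795, 933 and 920 CPM at 4 h against 641, 602 and 641 CPM at 0 h. CLDN4, a tight junction claudin, had 22.7, 18.4 and 18.6 CPM at 4 h against 180, 188 and 172 CPM at 0 h, a fall of 9.04-fold.

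Of 12 CEACAM and galectin genes 8 were higher and none lower (median 0.39), and of 17 UDP-glucuronosyltransferases 11 were higher and none lower (median 0.42), with 0 of either higher under ribosomal protein scaling. UGT1A genes share their last exons, so their separate levels are uncertain. Of 16 keratins 2 fell and 1 rose: KRT19 had 196, 205 and 235 CPM at 4 h against 269, 309 and 294 CPM at 0 h, and KRT10 had 6.15, 3.004 and 3.003 CPM at 4 h against 7.02, 6.97 and 7.64 CPM at 0 h, a call that was lost without 4 h libraries 2 and 3 (edgeR adjusted p = 0.556).

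Zinc finger genes with ZNF symbols, most of them DNA-binding repressors, were the largest group described: 382 of 436 identifiers fell (87.6%), 304 of them at least 2-fold, and 6 rose (median -1.67). ZNF627 had 0.915, 0.867 and 1.001 CPM at 4 h against 18.8, 19.99 and 21.6 CPM at 0 h. ZNF217, ZNF440 and ZNF791 fell 12.6-fold, 9.86-fold and 9.39-fold. Of 87 general transcription factor and RNA polymerase II genes 38 fell and 27 rose (median -0.09), shares of 43.7% and 31.0% beside 31.1% and 26.6% of all genes.

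**Figure D3:**
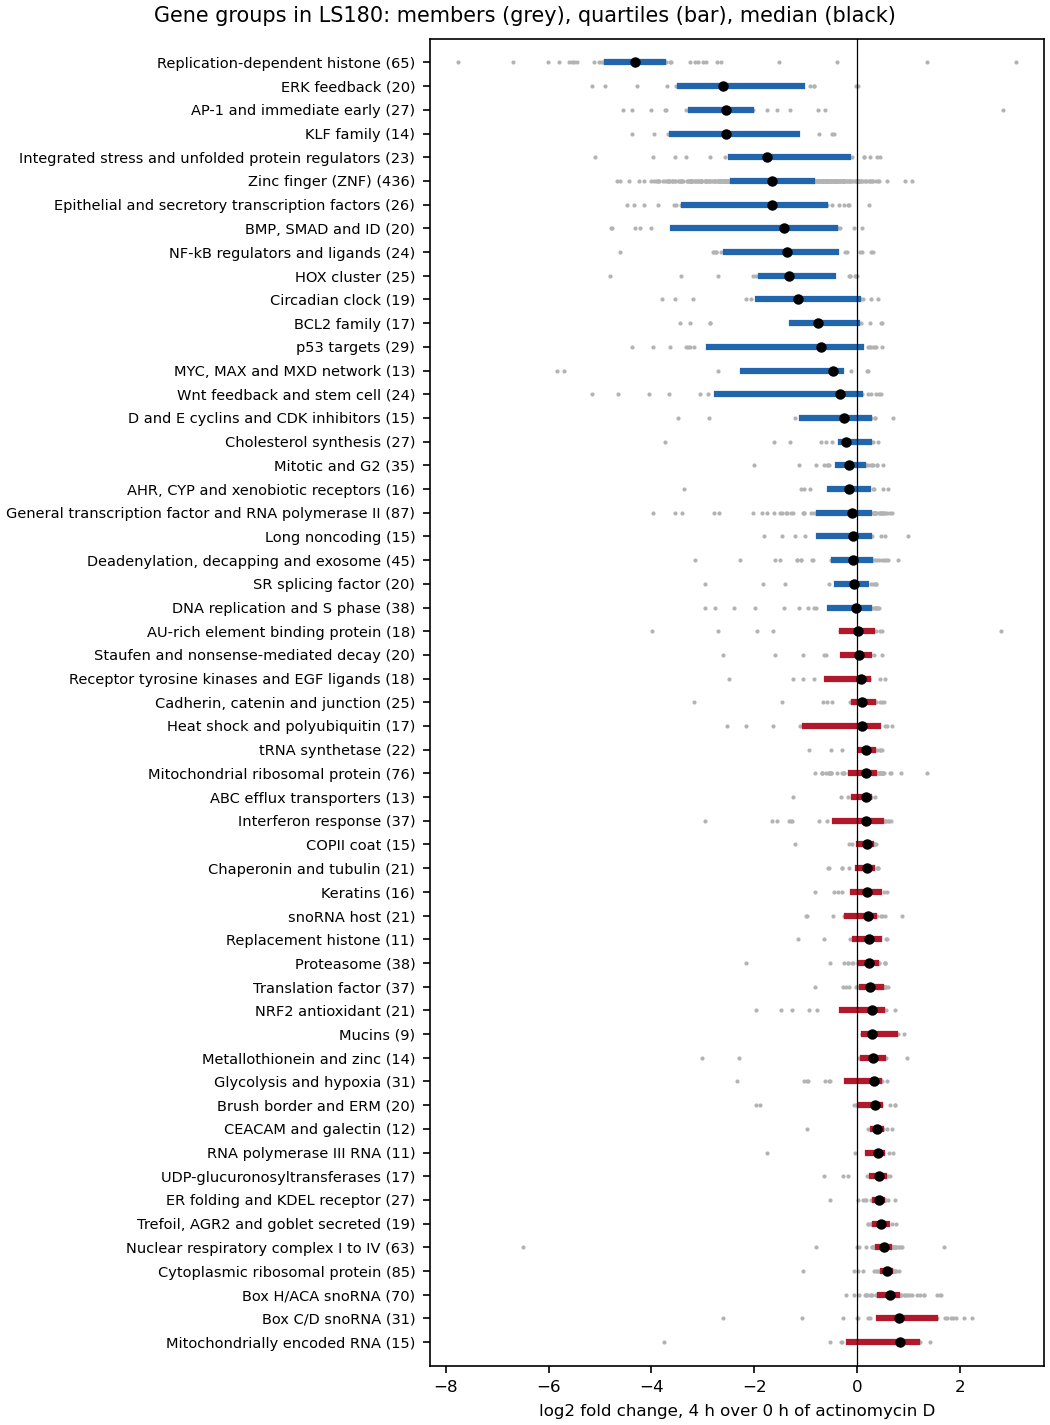
Log2 change of 4 h over 0 h in LS180 for the members of each gene group tested (grey points), with the quartiles (bar, blue where the median is below 0 and red where it is above) and the median (black); the number of members tested is in brackets. Medians run from -4.33 for replication-dependent histones to 0.83 for mitochondrially encoded RNAs, and groups with small positive medians fall below 0 under ribosomal protein scaling.

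Replication-dependent histones, whose mRNAs end in a stem-loop in place of a poly(A) tail, had the lowest median of all groups (-4.33): 62 of 65 fell, all at least 2-fold. HIST1H1C, a linker histone, had 53.6, 39.0 and 44.8 CPM at 4 h against 1226, 1189 and 1127 CPM at 0 h. HIST1H2BJ had 2.52, 2.74 and 2.63 CPM at 4 h against 165, 176 and 166 CPM at 0 h, and HIST1H2BG fell 46.5-fold. The 2 that rose, HIST2H2BD and HIST1H1PS1, are pseudogenes at low level. Histone copies are near-identical, so counts may be divided among them. Replacement histones, which carry poly(A) tails, had 2 of 11 lower and 6 higher, 7 and 0 with ribosomal protein scaling. H2AFX, which is phosphorylated at DNA breaks and has both kinds of end, had 72.2, 65.9 and 68.0 CPM at 4 h against 151, 160 and 146 CPM at 0 h, while H3F3A was 1.49-fold higher.

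Of 23 integrated stress and unfolded protein regulators 17 fell and 4 rose (median -1.75). DDIT4 had 3.07, 2.702 and 3.03 CPM at 4 h against 93.6, 106 and 99.4 CPM at 0 h. CEBPB, a transcription factor, fell 7.28-fold, PPP1R15B, which directs dephosphorylation of eIF2-alpha, 5.92-fold, and ATF4, the effector of the integrated stress response, 1.54-fold, with 272, 293 and 296 CPM at 4 h against 455, 443 and 427 CPM at 0 h. Of 27 endoplasmic reticulum (ER) folding enzymes and KDEL receptors 25 were higher and 1 lower (median 0.43), but 1 was higher and 8 lower with ribosomal protein scaling. CANX, the chaperone calnexin, had 1878, 2149 and 2158 CPM at 4 h against 1481, 1416 and 1517 CPM at 0 h, and the gene that fell was SDF2L1, an ER chaperone cofactor (1.45-fold).

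Of 17 heat shock and polyubiquitin genes 7 fell and 7 rose, beside 31.1% lower and 26.6% higher of all genes. DNAJB1, a cochaperone of HSP70, fell 5.75-fold. The polyubiquitin gene UBB fell 2.17-fold. HSP90AA1, the inducible cytosolic HSP90, had 2057, 2179 and 2190 CPM at 4 h against 1355, 1406 and 1233.7 CPM at 0 h, and was higher by 0.69 on the log2 scale.

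Of 14 metallothionein and zinc genes 2 fell and 4 rose, and the median was above 0 (0.31). The share that rose was near the 26.6% of all genes. Of those that fell, SLC30A1, a zinc exporter, had 9.66, 8.04 and 7.27 CPM at 4 h against 67.3, 65.3 and 70.7 CPM at 0 h, and MTF1, the metal-responsive transcription factor, fell 4.91-fold. Of 16 genes of the aryl hydrocarbon receptor, CYP enzymes and xenobiotic receptors 5 fell and 4 rose (median -0.15). These shares were near the 31.1% and 26.6% of all genes. TIPARP, a target of the aryl hydrocarbon receptor, fell 10.3-fold and AHR, the receptor itself, 2.05-fold. Of 21 NRF2 antioxidant genes 12 were higher and 6 lower, 1 and 12 with ribosomal protein scaling. NFE2L2, which encodes NRF2, had 42.9, 35.0 and 34.6 CPM at 4 h against 68.1, 72.2 and 75.3 CPM at 0 h. HMOX1, heme oxygenase, fell 2.79-fold and SRXN1, sulfiredoxin, 2.40-fold, while FTL, the ferritin light chain, was 1.48-fold higher.

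Of 27 cholesterol synthesis and uptake genes 14 fell and 10 rose (median -0.21), beside 31.1% lower and 26.6% higher of all genes. INSIG1, which holds the sterol sensor in the ER, had 126, 117 and 112 CPM at 4 h against 337, 365 and 392 CPM at 0 h. MVK, mevalonate kinase, fell 2.46-fold. Of 31 glycolysis and hypoxia genes 18 were higher and 7 lower, 0 and 16 with ribosomal protein scaling. VEGFA, the angiogenic growth factor, had 23.6, 12.7 and 13.2 CPM at 4 h against 81.7, 83.6 and 84.0 CPM at 0 h, and its log2 change was -2.33, or -1.68 without 4 h libraries 2 and 3. PFKFB3 fell 1.54-fold, and GAPDH was 1.37-fold higher. Of 37 interferon response genes 19 were higher and 10 lower, 0 and 19 with ribosomal protein scaling, with the transcription factor IRF1 7.73-fold lower and B2M, the light chain of class I molecules, 1.57-fold higher.

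Of 35 mitotic and G2 genes 17 fell and 8 rose (median -0.16), with 7 lower when 4 h libraries 2 and 3 were left out. AURKA, a mitotic kinase, had 23.7, 22.4 and 20.5 CPM at 4 h against 92.1, 85.7 and 91.6 CPM at 0 h. PLK1, a second mitotic kinase, had 45.4, 32.9 and 30.4 CPM at 4 h against 83.1, 80.3 and 74.5 CPM at 0 h. Of 38 DNA replication and S phase genes 12 fell and 11 rose, near the shares of all genes. The 4 with the smallest p were the E2F factors of that list: E2F2, E2F8, E2F3 and E2F7 fell 7.76-fold, 6.75-fold, 5.24-fold and 3.94-fold.

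Of 18 AU-rich element binding proteins 6 fell and 6 rose (median 0.02), 33.3% each way, beside 31.1% and 26.6% of all genes. ZFP36L2, which recruits deadenylases, had 3.03, 2.26 and 1.83 CPM at 4 h against 39.2, 40.1 and 34.7 CPM at 0 h. ZC3H12A, an endonuclease, fell 6.49-fold, ZFP36L1 3.88-fold and ZFP36 3.11-fold. Of 45 deadenylation, decapping and exosome genes 19 fell and 15 rose (median -0.08), beside the same 31.1% and 26.6% of all genes. TOB1 and TOB2, which link deadenylases to mRNAs, fell 8.90-fold and 4.82-fold, and PABPC1, the poly(A) binding protein, had 564, 545 and 524 CPM at 4 h against 382, 400 and 363 CPM at 0 h.

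Of 20 Staufen and nonsense-mediated decay genes 5 fell and 8 rose (median 0.03), beside 31.1% lower and 26.6% higher of all genes. SMG8, a regulator of the SMG1 kinase, had 5.81, 5.14 and 5.70 CPM at 4 h against 34.7, 33.6 and 32.8 CPM at 0 h. PNRC2, which links UPF1 to decapping, had 89.1, 82.8 and 79.7 CPM at 4 h against 178, 163 and 181 CPM at 0 h. With ribosomal protein scaling 18 fell and 0 rose. Among SR splicing factors and their kinases 8 of 20 fell and 5 rose, and the share that rose was near the 26.6% of all genes. The kinases CLK1, CLK4 and CLK2 fell 7.82-fold, 3.56-fold and 2.63-fold, and in CLK2 the 4 h library 1 stood at 7.64 CPM against 3.43 and 3.68 CPM in 4 h libraries 2 and 3. The log2 change of CLK2 was -1.40, and -0.64 without those libraries.

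Of 85 cytoplasmic ribosomal protein genes 81 were higher and 1 lower (median 0.58). RPL31 had 869.6, 1092 and 1160 CPM at 4 h against 597, 571 and 596 CPM at 0 h, and RPS27 was 1.65-fold higher. Of 63 identifiers of nuclear genes of respiratory complexes I to IV, some of which share a symbol, 58 were higher and 1 lower (median 0.51). NDUFA1, a complex I subunit, had 119, 154 and 158 CPM at 4 h against 82.3, 78.9 and 83.1 CPM at 0 h. NDUFB1, NDUFB3 and NDUFB2 were 1.82-fold, 1.80-fold and 1.70-fold higher, and NDUFV3 was the gene that fell (1.74-fold). Scaling to ribosomal protein genes sets their own summed counts to no change, so it cannot test whether that group rose. Under it 7 ribosomal protein genes were higher and 8 lower, and 9 respiratory genes were higher and 11 lower.

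Of 37 translation factors 23 were higher and 4 lower, with EIF5, a GTPase activator of initiation, the lower one with the smallest p: it had 145, 143 and 142 CPM at 4 h against 250, 247 and 264 CPM at 0 h. EEF1A1, the elongation factor, had 22414, 27348 and 29714 CPM at 4 h against 18803, 18109 and 19176 CPM at 0 h. Of 76 identifiers of mitochondrial ribosomal protein genes, some of which share a symbol, 40 were higher and 17 lower, and MRPL36 fell 1.77-fold. MRPL30, among the 15 largest rises at 1.80-fold (edgeR adjusted p = 0.0087), has a pair of gene identifiers in the tables, so its reads may be divided, and its call was lost without 0 h library 2 (0.0572), without 4 h libraries 2 and 3 (0.0825), with total library size (0.0512) and with ribosomal protein scaling (0.342). With ribosomal protein scaling 0 translation factors and 0 mitochondrial ribosomal protein genes were higher, against 23 and 58 lower. Beyond these, IL33, a nuclear cytokine, had 293, 401 and 421 CPM at 4 h against 198, 194 and 209 CPM at 0 h.

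The size of the rises differed between the 4 h libraries. Against the 0 h mean, the median log2 ratio of ribosomal protein genes was 0.31, 0.63 and 0.73 in 4 h libraries 1, 2 and 3, and that of respiratory genes was 0.28, 0.57 and 0.64. Without 4 h library 1, 83 ribosomal protein and 59 respiratory genes were higher, and without 4 h libraries 2 and 3, 81 and 58 were. Relative to genes averaging at least 1 CPM, their medians were 0.56 and 0.50 with all libraries, 0.68 and 0.61 without library 1, and 0.30 and 0.28 without libraries 2 and 3. Transcript length moved with it. Genes averaging at least 10 CPM were set in 4 groups by transcript length, of 1937 to 2215 genes each. Those in the shortest group had medians of 0.16, 0.32 and 0.36 in libraries 1, 2 and 3, and those in the longest had 0.03, -0.06 and -0.10. The part of transcript length in these results was not tested. A fit with the effective length as offset takes up only shifts in a gene's own length between libraries. It cannot address this trend between genes of different length. In that fit 81 ribosomal protein and 58 respiratory genes were higher.

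**Figure D4:**
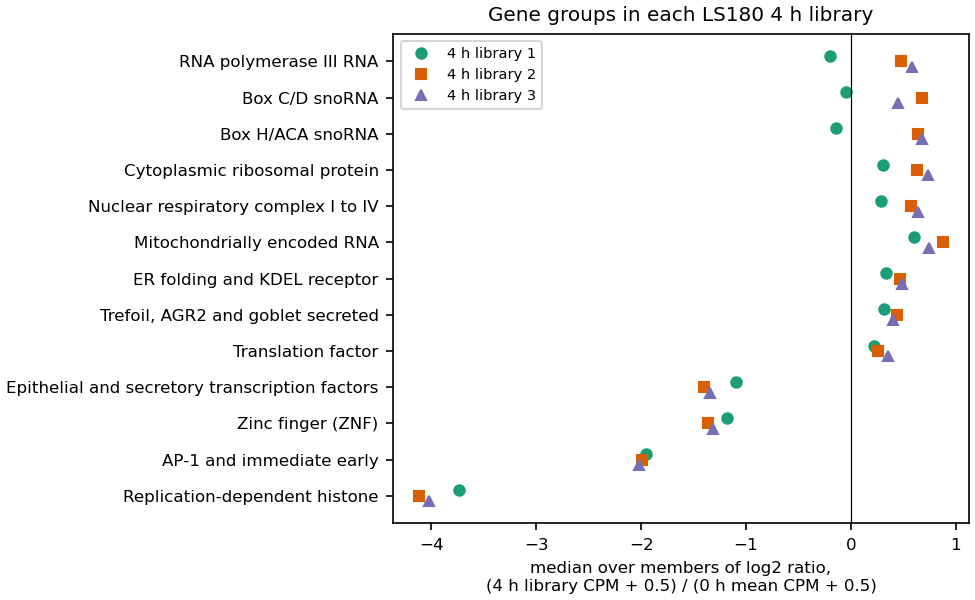
Median over each gene group of the log2 ratio of a 4 h library to the 0 h mean in LS180 (CPM plus 0.5), for 4 h libraries 1, 2 and 3. For small RNAs library 1 lies below 0 (-0.20 for RNA polymerase III RNAs, -0.044 for box C/D and -0.14 for box H/ACA snoRNAs) and libraries 2 and 3 above.

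Small nuclear-encoded RNAs differed between the 4 h libraries. Of 31 box C/D snoRNAs, which guide ribose methylation, 16 were higher and 2 lower. Of 70 box H/ACA snoRNAs, which guide pseudouridylation, 27 were higher and none lower, and of 11 RNA polymerase III transcripts 4 were higher and 1 lower. Without 4 h library 1 the higher counts were 22, 60 and 9, and without 4 h libraries 2 and 3 they were 3, 4 and 0. The 7SL RNA gene RN7SL1, part of the signal recognition particle, had 48602, 77075 and 94316 CPM at 4 h against 46027, 56506 and 53351 CPM at 0 h, so that library 1 lay within the 0 h range. Its call (edgeR adjusted p = 0.00964) was lost without 4 h library 3 (0.095), without 0 h library 1 (0.0524), without 4 h libraries 2 and 3 (0.829) and in a fit of the 6 LS180 libraries alone (0.0819). RN7SL1 has near-identical copies whose reads may be divided. SNORD13 had 27.3, 50.1 and 43.6 CPM at 4 h against 9.52, 15.01 and 11.7 CPM at 0 h, above all 0 h libraries in each. RNU6ATAC, a small nuclear RNA of the minor spliceosome, fell, with 0.324, 0.585 and 0.675 CPM at 4 h against 1.70, 2.17 and 1.47 CPM at 0 h.

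Mitochondrially encoded RNAs, which a separate polymerase makes, had 9 of 15 higher and 3 lower, and 7 were still higher with ribosomal protein scaling. MT-RNR2, the large ribosomal RNA, had 525, 725 and 620 CPM at 4 h against 273, 270 and 265 CPM at 0 h (log2 1.21, SE 0.141; edgeR adjusted p = 6.12e-07). MT-RNR1, the small ribosomal RNA, was 2.69-fold higher and MT-ND4 2.34-fold. MT-CO1, a subunit of complex IV, had 466, 485 and 449 CPM at 4 h against 259, 214 and 223 CPM at 0 h. MT-ND6, the protein gene on the light strand, had 0.133, 0.242 and 0.218 CPM at 4 h against 2.88, 2.39 and 2.71 CPM at 0 h, a fall of 13.4-fold. MT-ND1, on the heavy strand, had 2.99, 4.48 and 2.87 CPM at 4 h against 5.43, 4.39 and 5.17 CPM at 0 h, groups that overlapped, and its call (edgeR adjusted p = 0.0157) was lost without 4 h library 1 or 3, without 0 h library 1, with RLE size factors and with a floor of 1 CPM (0.0554 to 0.188). Nuclear copies of mitochondrial DNA can share these reads, and mitochondrial mRNAs took 0.0665 to 0.0856% of counts at 4 h and 0.0467 to 0.0573% at 0 h.

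Among long noncoding RNAs, 6 of 15 fell and 4 rose (median -0.09), and the share that rose was near the 26.6% of all genes. MALAT1, a nuclear speckle RNA, had 702, 480 and 471 CPM at 4 h against 261, 309 and 266 CPM at 0 h (log2 0.98, SE 0.126; edgeR adjusted p = 2.13e-06), with library 1 the highest. H19 had 1886, 1910 and 1901 CPM at 4 h against 1445, 1431 and 1263 CPM at 0 h. Of 21 snoRNA host genes 5 fell and 9 rose (median 0.21), beside 31.1% lower and 26.6% higher of all genes. SNHG6 had 105, 122 and 129 CPM at 4 h against 68.4, 60.7 and 65.1 CPM at 0 h, and SNHG15 had 13.5, 15.2 and 15.5 CPM at 4 h against 26.9, 31.0 and 29.8 CPM at 0 h. The SNHG15 change took the opposite sign with an effective length offset (0.13).

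By the TMM scale 1473 protein-coding genes had a change whose interval (2 SE to each side) lay within 0.25 of the median gene. The 6 most abundant were FAT1, a giant protocadherin, ITGA6, an integrin, KRT18, a simple epithelial keratin, TUBB, a tubulin, CLTC, the clathrin heavy chain, and H3F3B, a replacement histone. FAT1 had 1947, 1519 and 1634 CPM at 4 h against 1589, 1668 and 1797 CPM at 0 h. KRT18 had 993, 1056 and 1129 CPM at 4 h against 1005, 1126 and 1078 CPM at 0 h. In both the groups overlapped, and with ribosomal protein scaling the change of all 6 was below 0.

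Gene structure differed between the genes that fell and those that did not. Of 13811 protein-coding genes tested, 13469 (97.5%) had a coding transcript in GENCODE 29, taken here as that with the longest coding sequence. With histones left out, 45.8% of 295 genes with 1 exon were at least 2-fold lower, against 33.6% of 2429 genes with 2 to 4 exons, 15.1% of 4995 genes with 5 to 10 exons and 8.64% of 5729 genes with over 10. The shares called higher were 5.76%, 21.6%, 33.8% and 30.9%. The median 3′ UTR was 1265 bases in genes at least 2-fold lower, 778 bases in genes higher and 972 bases in all. ATTTA was present in 75.3% of the 3′ UTRs of genes at least 2-fold lower, 64.6% of those of genes higher and 66.9% of all, and TTATTTATT in 12.1%, 5.23% and 7.93%. Longer UTRs have more room for a motif: the median density of ATTTA was 1.77 per 1000 bases in genes at least 2-fold lower, 1.65 in genes higher and 1.501 in all. It was 1.63 in genes lower by less than 2-fold and 1.21 in genes not called, so it did not order the classes by loss. In those classes ATTTA was present in 72.1% and 62.4% of 3′ UTRs, and TTATTTATT in 9.95% and 7.27%. Genes were also grouped by short, middle and long 3′ UTRs. In these groups 25.4%, 30.6% and 23.3% of genes with TTATTTATT were at least 2-fold lower. Of those without it, 10.6%, 18.3% and 19.01% were. Within each group the genes with it (63, 258 and 747) still had longer median 3′ UTRs. Their medians were 303, 1094 and 3763 bases, against 243, 963 and 2862 bases. These are descriptions across genes, which are not independent.

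**Figure D5:**
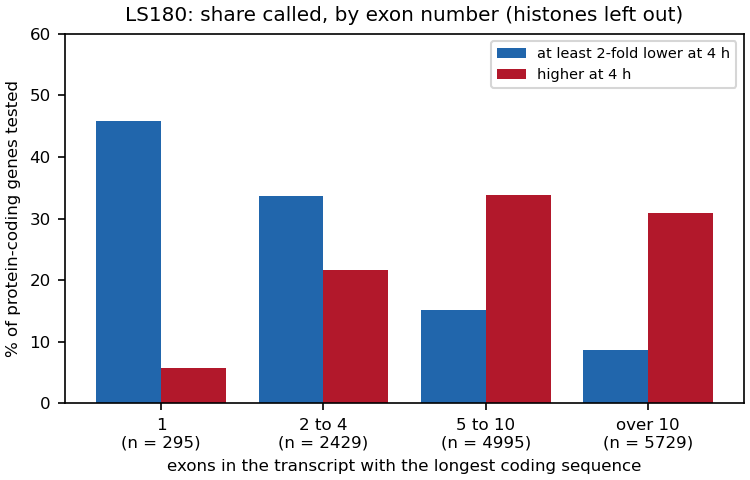
Share of protein-coding genes that were at least 2-fold lower (blue) or higher (red) at 4 h than at 0 h of actinomycin D in LS180, by the number of exons of the transcript with the longest coding sequence, histones left out. The share lower runs from 45.8% with 1 exon to 8.64% with over 10.

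The change in LS180 was set against that in HCT116 in the same fit. The difference was called for 2129 genes lower in LS180 (12.3%) and 230 higher (1.33%). These counts rested on few libraries: without HCT116 4 h library 1, 2 or 3 the lower count was 1143, 1051 or 1079, without LS180 4 h library 1 the higher count was 2536, and without LS180 4 h libraries 2 and 3 the counts were 524 lower and 466 higher. Among genes averaging at least 10 CPM, ZNF440 had 3.64 ± 0.455 CPM at 4 h and 36.0 ± 1.10 CPM at 0 h in LS180, and 13.9 ± 1.06 CPM at 4 h and 27.1 ± 2.42 CPM at 0 h in HCT116 (SD, n = 3 each). Its LS180 change was lower by 2.34 on the log2 scale (line difference -2.34, SE 0.116; edgeR adjusted p = 1.53e-09). For CDKN1A the line difference was -2.22 (SE 0.192; edgeR adjusted p = 4.75e-07), with 133 ± 30.6 CPM at 4 h and 210 ± 33.1 CPM at 0 h in HCT116 (SD, n = 3 each). DKK1, a secreted Wnt antagonist, was lost less in LS180, with 6.98 ± 1.82 CPM at 4 h and 13.1 ± 1.89 CPM at 0 h, against 13.7 ± 4.14 CPM at 4 h and 140 ± 9.87 CPM at 0 h in HCT116 (SD, n = 3 each). FOXA1 was not called as different between the lines (line difference -0.25; edgeR adjusted p = 0.77), which does not show that it decays alike in both. It was scarce in HCT116, at 0.283 ± 0.145 CPM at 4 h and 2.58 ± 0.520 CPM at 0 h (SD, n = 3 each).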

How the data were processed

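The deposited RSEM gene tables of the 18 actinomycin D libraries were used. The submitters' processing notes name cutadapt, STAR 2.7, RSEM 1.3.1 and the build hg19. Neither the annotation release nor the strand setting is stated in the sources used here. The authors' deposited expected counts share out reads that fit more than 1 gene, so near-identical copies have uncertain levels. They were rounded to whole numbers. The authors' deposited effective lengths served as an offset in 1 alternative, and their deposited TPM values were not tested. The tables of the siRNA experiment were not used here.

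Groups came from the labels. One edgeR 4.0.16 fit (R 4.3.3; filterByExpr, TMM, quasi-likelihood test, two-sided) covered all 6 groups of 3 libraries, with 12 residual degrees of freedom. P-values were adjusted by Benjamini-Hochberg over 17256 genes at a threshold of 0.05. The contrasts were LS180 at 4 h against 0 h and its difference from the same change in HCT116. Standard errors came from the F statistic. On simulated data with 200 changed genes (15714 genes in all) the fit recovered 96.1% of genes changed 1.5-fold and 100% of those changed 2-fold or 4-fold, with 2.96% of calls false. The simulation gave all genes 1 dispersion (0.0067), set directions at random and held no difference between libraries beyond depth. Its share of false calls therefore does not carry over to these data, where 57.7% of genes were called.

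The text names FOXA1 to FOXA3, STAU1 and STAU2, the 15 largest falls and 15 largest rises among called genes averaging at least 10 CPM whose groups did not overlap, per group up to 4 members of smallest adjusted p, the most abundant member and up to 2 that went against the rest. It also names the 6 most abundant little-changed genes and the 5 largest line differences each way. Not all genes the rule allows are reported here, and the ranking left out pseudogenes, clone and read-through names, short noncoding RNAs and replication-dependent histones. Counts over groups are of gene identifiers, and a few symbols have a pair. HIST2H2BD, HIST1H1PS1, FOXA3 in the line difference and the marker genes stand outside it. The comparison and its gene lists were chosen with earlier results of these data known. Biotypes, exons and 3′ UTRs came from GENCODE 29 (GRCh38), matched by gene identifier for 52338 of 57820 genes, and no coordinates of the files' build are given. Plots used matplotlib 3.10.9.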

Additional observations from a re-analysis of the deposited data

Results flagged for a closer look

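The results here are differences between the 4 h change in LS180 and that in HCT116, tested in 1 fit of both lines, with the value given as the LS180 change minus the HCT116 change on the log2 scale. The test called 2129 genes lower and 230 genes higher in LS180, and these counts depend on single libraries, as given with them above and in the values by processing.

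Lower in LS180 were EPHB3 (-2.46), ID3 (-2.35), ZNF440 (-2.34), CDCA4 (-2.25), CDKN1A (-2.22) and FOXA3 (-1.81). EPHB3 was scarce in HCT116, at 0.488 ± 0.203 CPM at 4 h and 3.25 ± 0.287 CPM at 0 h (SD, n = 3 each). The ID3 libraries of HCT116 differed among themselves, with 9.09, 3.62 and 3.22 CPM at 4 h and 47.9, 19.5 and 19.8 CPM at 0 h, and its call was lost without HCT116 4 h library 1 (line difference -1.55, edgeR adjusted p = 0.0858). CDCA4, a cell division gene, had 2.99 ± 0.615 CPM at 4 h and 38.2 ± 3.05 CPM at 0 h in LS180, and 23.8 ± 1.07 CPM at 4 h and 63.9 ± 2.59 CPM at 0 h in HCT116 (SD, n = 3 each). FOXA3 had 0.990, 0.692 and 0.515 CPM at 4 h and 4.55, 3.35 and 3.19 CPM at 0 h in HCT116.

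Higher in LS180 were NNT (4.24), GPA33 (2.56), RGMB (2.56), DKK1 (2.44) and PDE4B (1.42). NNT stood at 0 CPM in all HCT116 4 h libraries and at 0.0197 to 0.0356 CPM at 0 h, and GPA33 at 0 to 0.0355 CPM at 4 h and 0.0748 to 0.143 CPM at 0 h, so that their line differences rest on a few counts and describe no decay. RGMB, a BMP coreceptor, had 79.2, 40.3 and 40.7 CPM at 4 h and 79.6, 63.9 and 64.7 CPM at 0 h in LS180, against 2.56, 2.51 and 2.34 CPM at 4 h and 17.8, 19.5 and 19.6 CPM at 0 h in HCT116. Without LS180 4 h libraries 2 and 3 the line difference was 3.29 for RGMB and -1.85 for EPHB3. PDE4B, a cyclic AMP phosphodiesterase, had 0.270 ± 0.0245 CPM at 4 h and 1.06 ± 0.231 CPM at 0 h in LS180, and 8.72 ± 0.452 CPM at 4 h and 90.9 ± 4.49 CPM at 0 h in HCT116 (SD, n = 3 each). The minimum of 10 CPM was set on the mean of both lines, so PDE4B passed it through HCT116 alone and NNT, GPA33 and EPHB3 through LS180 alone.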

How the results depend on the processing

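The number of genes called lower at 4 h kept within 1.5 times of 5365 under all alternatives but 1, scaling to ribosomal protein genes, which gave 10661 lower and 133 higher. Total library size gave 6458 lower and 1894 higher. DESeq2 gave 4525 lower and 5964 higher, RLE size factors 4613 and 6044, a floor of 1 CPM in each library of some group 4223 and 5919, and no filter on low counts 4698 and 5888. Leaving out 1 library at a time gave 4814 to 5128 lower and 4107 to 5969 higher, and leaving out 4 h libraries 2 and 3 gave 3637 and 4683. The scaling moves the middle of the distribution: the median log2 change of genes averaging at least 1 CPM was 0.02, but 0.15 with DESeq2 or RLE, 0.16 and 0.14 with the other filters, -0.52 with ribosomal protein scaling, -0.18 with total library size, 0.13 without 4 h library 1 and 0.14 without 4 h libraries 2 and 3. With a replicate block, the numbers as pairs, 5608 genes were lower and 5002 higher. Same-numbered libraries at 4 h and 0 h correlated by 0.0748, 0.0337 and 0.0549 in LS180. In HCT116 they correlated by 0.274, 0.111 and 0.0849. Differently numbered libraries correlated by -0.0786 to 0.0347 in LS180 and by -0.186 to 0.0903 in HCT116. The fit used for the calls did not take the numbers as pairs. Whether the numbers mark shared cultures was not tested.

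The line difference was less stable. Against 2129 lower and 230 higher, the counts were 1253 and 1757 with that floor, 1372 and 984 without a filter, and 524 and 466 without 4 h libraries 2 and 3 of LS180. The higher count was 666 with DESeq2, 451 with RLE, 72 with ribosomal protein scaling and 128 with total library size. Leaving out 1 library gave 1051 to 2101 lower and 136 to 2536 higher. With a replicate block the counts were 2506 lower and 310 higher. The cause was not tested.

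Modest changes took the opposite sign under other scalings. With ribosomal protein scaling the log2 changes were -0.0079 for AGR2, -0.024 for PABPC1, -0.059 for EEF1A1, -0.064 for EPCAM, -0.066 for CANX, -0.082 for H19, -0.091 for RN7SL1, -0.10 for VIL1, -0.11 for GAPDH, -0.30 for STAU2, -0.34 for STAU1, -0.41 for CLTC, -0.45 for ITGA6 and H3F3B, -0.51 for FAT1 and -0.52 for CCND1 and TUBB. With total library size they were -0.070 for CLTC, -0.11 for ITGA6 and H3F3B, -0.17 for FAT1 and TUBB and -0.18 for CCND1. KRT18 was 0.12 with DESeq2 and RLE, 0.13 and 0.10 with the other filters, 0.026 without 4 h libraries 2 and 3, and -0.059 to 0.16 without 1 library. With an effective length offset CCND1 was -0.0015, FAT1 -0.033 and SNHG15 0.13, and FAT1 was -0.028 to 0.096 without 1 library. Relative to genes averaging at least 1 CPM, leaving out 4 h libraries 2 and 3 turned the medians of keratins (-0.18), snoRNA host genes (-0.11), RNA polymerase III RNAs (-0.31), box C/D (-0.11) and box H/ACA snoRNAs (-0.23) and fibroblast markers (-0.35). The fibroblast median was also -1.10 with the floor of 1 CPM and -0.085 to 0.20 without 1 library, and the heat shock median was -0.041 with an effective length offset. Precision rests on 3 libraries a group of 50.9 to 57.4 M counts in LS180.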
